A study of Mus musculus with 15 samples.

Results

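Gsdmd and Carhsp1 are 2 genes of inflammation, followed here in the striatum of mice with intracerebral hemorrhage. Each was read here by 1 probe of an Agilent expression array, A_51_P172231 for Gsdmd and A_51_P163444 for Carhsp1. They are 2 of the 45 tested genes that were named here, on an array that carried 51669 tested probes in all. Symbols were sought only for probes whose names begin with A_51_P. Whether other probes read either gene was not looked up. Both genes were picked by name and probe, and every array gave a value for both.

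Gsdmd encodes gasdermin D, the pore protein of pyroptosis. Inflammatory caspases, activated by inflammasomes, cleave the protein, and its amino-terminal fragment inserts into the plasma membrane, through which mature interleukin-1 beta leaves the cell and which can end in lysis. In the brain it is best known from microglia and macrophages. Carhsp1 encodes a small cold-shock domain protein that binds RNA and is known for stabilizing the mRNA of tumor necrosis factor, an early cytokine of innate immunity. A probe on an array reads the transcript, so the values below say nothing of gasdermin D cleavage, of pore formation or of Carhsp1 protein.

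The samples came from 15 arrays, with 5 arrays per group, and the tissue was the ipsilateral striatum of male mice, taken on day 14. Sham mice and mice with intracerebral hemorrhage (ICH) received distilled water by gavage. The BYHWD group received Buyang Huanwu decoction, a herbal formula of traditional Chinese medicine, at 6.19 g/kg once a day. The series title presents the decoction as a treatment of the hemorrhage, so the question put to each gene is whether hemorrhage moved its transcript and whether the decoction moved it from there. That the BYHWD mice had a hemorrhage is implied by that title and is not stated outright in the sample labels. The strain, the age, the way in which the hemorrhage was made and whether each sample came from a separate mouse are not given in the sources used here. The p-values therefore measure the spread between these samples, which may in part be technical. In pieces of whole tissue, more or fewer cells of a type and more or less RNA per cell cannot be told apart.

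The 15 arrays lay on 3 slides, and the slides did not hold the groups evenly. All 5 sham arrays shared slide 1 with the second and the third ICH array. The remaining 3 ICH arrays were alone on slide 2, and slide 3 was filled by BYHWD. BYHWD treatment and slide cannot be told apart. Arrays also differed in brightness: the 75th percentile of their signal was 432 to 540 scanner units for sham, 421 and 453 for ICH on slide 1, 261 to 303 for ICH on slide 2, and 274 to 386 for BYHWD. The difference between the 3' and 5' Gapdh control probes, a measure of RNA or labelling quality on the log2 scale, averaged 0.23 ± 0.15 over sham arrays (SD, n = 5). Over ICH arrays it averaged 0.61 ± 0.19 and over BYHWD arrays 0.48 ± 0.10. Both genes were read well: all 150 spots of each probe stood well above background and 0 were saturated. The 10 spots of a probe on an array differed by a pooled SD of 0.10 log2 units for Gsdmd and 0.07 for Carhsp1, against a spread between arrays of a group of 0.29 and 0.31.

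Gsdmd was higher after hemorrhage. Its level, given throughout as the log2 signal relative to the array's 75th percentile, was -2.18, -1.90, -2.03, -2.28 and -1.82 on sham arrays 1 to 5. On ICH arrays 1 to 5 it was -1.14, -0.94, -0.73, -1.44 and -1.07. Every ICH array was above every sham array, and the highest levels were on ICH 2 and ICH 3, the arrays that shared a slide with sham. The group means were -2.04 ± 0.19 in sham and -1.06 ± 0.26 in ICH (SD, n = 5 each). The difference was 0.97 ± 0.17 log2 units (SE), with a 95% interval of 0.60 to 1.35, or 1.97-fold (1.52 to 2.54). The limma adjusted p over all tested probes was 0.00862, and the exact permutation test over the 10 arrays gave a 2-sided p of 0.00794, the smallest it can give. In this comparison 5.03% of all tested probes were called (adjusted p under 0.05), 4.07% higher and 0.954% lower, and 3.95% were higher with no overlap between the groups. The share called depended on single arrays: 5.03% became 0.852% without ICH 5, 20.2% without ICH 2 and 19.1% without ICH 3, and 1.20% to 2.39% without any 1 of ICH 1, ICH 4 or the sham arrays.

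The comparison with sham within a single slide could be made on slide 1 only, since slide 2 held no sham array. Within slide 1, ICH 2 and ICH 3 exceeded the 5 sham arrays by 1.21 ± 0.21 log2 units, or 2.31-fold (limma adjusted p = 0.0354, and exact permutation p = 0.0476, the smallest that 21 groupings allow). Of all tested probes, 0.339% were called within that slide, 0.333% higher. The spread in this limma fit was taken from the arrays of all slides, so the limma adjusted p does not rest on slide 1 alone. With the ICH arrays of slide 2 left out of the fit, the difference of 1.21 did not pass (limma adjusted p = 0.0599). That fit called 26 of all tested probes between ICH and sham. After quantile normalization the within-slide adjusted p from limma was 0.0516, with a difference of 1.18. The ICH arrays of slide 2 exceeded sham by 0.82 ± 0.19, or 1.77-fold (limma adjusted p = 0.00326), in a comparison across slides in which 36.5% of all probes were called, so that hemorrhage and slide cannot be told apart in it. Within the ICH group, slide 2 minus slide 1, the Gsdmd difference was -0.39 ± 0.23 and did not pass the test (limma adjusted p = 0.264).

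The unscaled signal shows which part of this rests on the scaling between arrays. Gsdmd gave 95.5, 123, 125, 112 and 134 scanner units on sham arrays 1 to 5. On slide 1, ICH 2 and ICH 3 gave 236.5 and 254 units. On slide 2, ICH 1, ICH 4 and ICH 5 gave 123, 111 and 125 units. The excess of ICH over sham was 2.10-fold in the raw signal on slide 1, where it did not pass the test (limma adjusted p = 0.121). For the ICH arrays of slide 2, which were dimmer as a whole, it was 1.02-fold (limma adjusted p = 0.896), so their excess over sham appeared only after scaling. Without any scaling the pooled Gsdmd difference was 0.45 and did not pass the test (limma adjusted p = 0.144), while the median of all probes was at -0.48. Relative to that median the Gsdmd difference was 0.93.

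**Figure D1:**
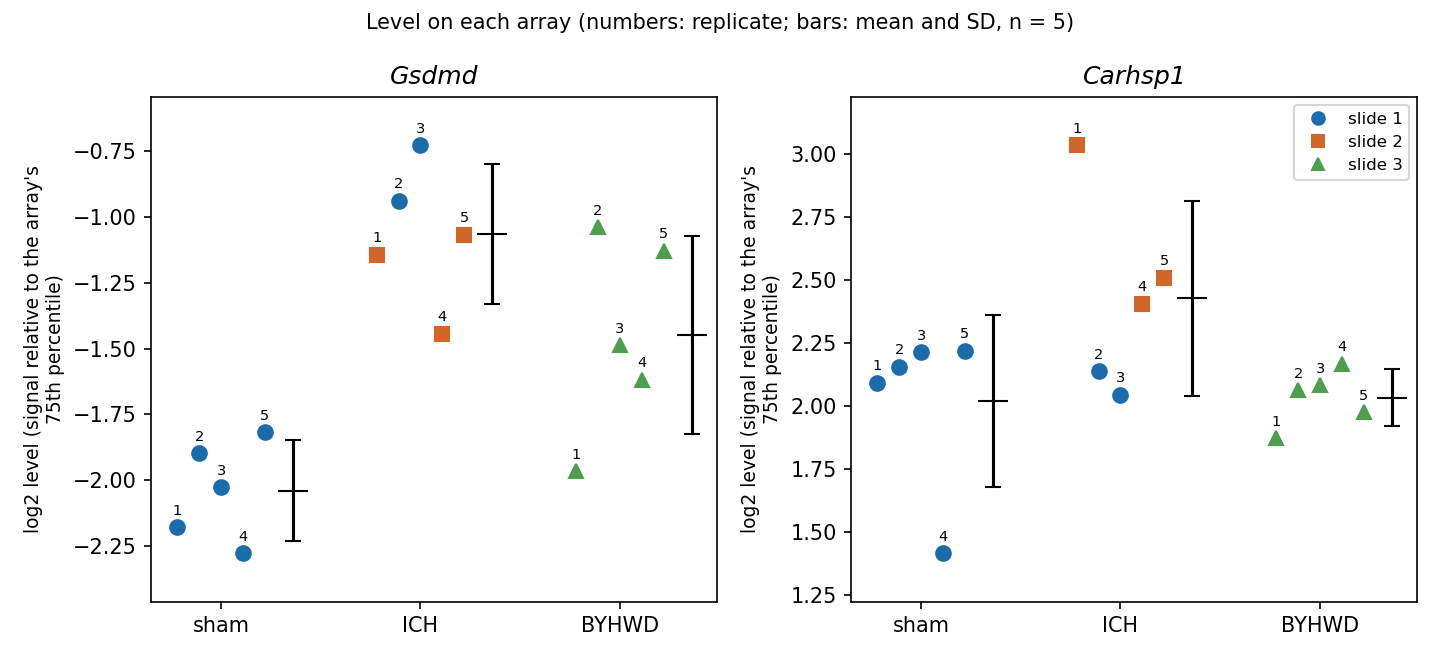
Levels of Gsdmd (left) and Carhsp1 (right) on each array, as log2 signal relative to the array's 75th percentile, with the replicate number at each point, the slide as colour and shape, and the mean and SD of each group (n = 5). The 5 ICH arrays lie above the 5 sham arrays for Gsdmd, at -1.44 to -0.73 against -2.28 to -1.82, and the Carhsp1 groups overlap.

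With the decoction, Gsdmd lay between the other groups and spread widely. BYHWD arrays 1 to 5 were at -1.97, -1.04, -1.49, -1.62 and -1.13, with a mean of -1.45 ± 0.38 (SD, n = 5). BYHWD 2 and BYHWD 5 fell inside the ICH range, the other 3 lay below every ICH array, and BYHWD 1 lay inside the sham range. Against ICH the difference was -0.38 ± 0.17 log2 units, with a 95% interval of -0.75 to -0.01, or 0.767-fold (0.593 to 0.991). It did not pass the test: the limma p was 0.0436 before and 0.169 after adjustment, and the exact permutation p was 0.103. In this comparison 6.13% of all probes were called, 3.62% higher and 2.51% lower. The interval runs from almost no difference to a level 0.593-fold that of ICH.

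Set against each part of the ICH group, the Gsdmd difference of BYHWD was -0.61 ± 0.21 from the ICH arrays of slide 1 (limma adjusted p = 0.0974) and -0.23 ± 0.19 from those of slide 2 (limma adjusted p = 0.378). The first of these groups did not overlap with BYHWD (exact permutation p = 0.143), and the second did (exact permutation p = 0.429). For comparisons split by slide, the share of all probes without overlap is not given here. Without scaling, the difference from the ICH arrays of slide 1 was -0.998, or 0.501-fold, and passed the test (limma adjusted p = 0.0154), and that from slide 2 was 0.04 (limma adjusted p = 0.919). Both comparisons cross slides. With scaling, 7.17% of all tested probes were called in the first, 1.33% lower, and 27.7% in the second. The shares called without scaling are not given here. The BYHWD arrays were dimmer as a whole than the ICH arrays of slide 1, with 75th percentiles of 274 to 386 units against 421 and 453.

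Against sham, Gsdmd under BYHWD was higher by 0.59 ± 0.17 log2 units, with a 95% interval of 0.22 to 0.96, or 1.51-fold (1.16 to 1.95). The limma adjusted p was 0.0308 and the exact permutation p 0.0238, and 4 of the 5 BYHWD arrays were above every sham array. Calls were common here: 17.3% of all probes passed, 12.7% higher and 4.62% lower, so the Gsdmd call was one of many. It was lost without any 1 of sham 1, sham 3, sham 4, BYHWD 2, BYHWD 3 or BYHWD 5, with limma adjusted p-values up to 0.0846, and with quantile normalization, where the difference was 0.53 (limma adjusted p = 0.0522). In scanner units the BYHWD arrays gave 98.8, 170, 97.7, 99.6 and 170, and without scaling the difference from sham was 0.07 with the median of all probes at -0.50. The order of the group levels was thus sham, BYHWD, ICH, and the difference between the neighbours BYHWD and ICH did not pass after adjustment over all probes. ICH and BYHWD were both set against the same sham arrays, and BYHWD and sham against the same ICH arrays, so the 3 differences are not independent.

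**Figure D2:**
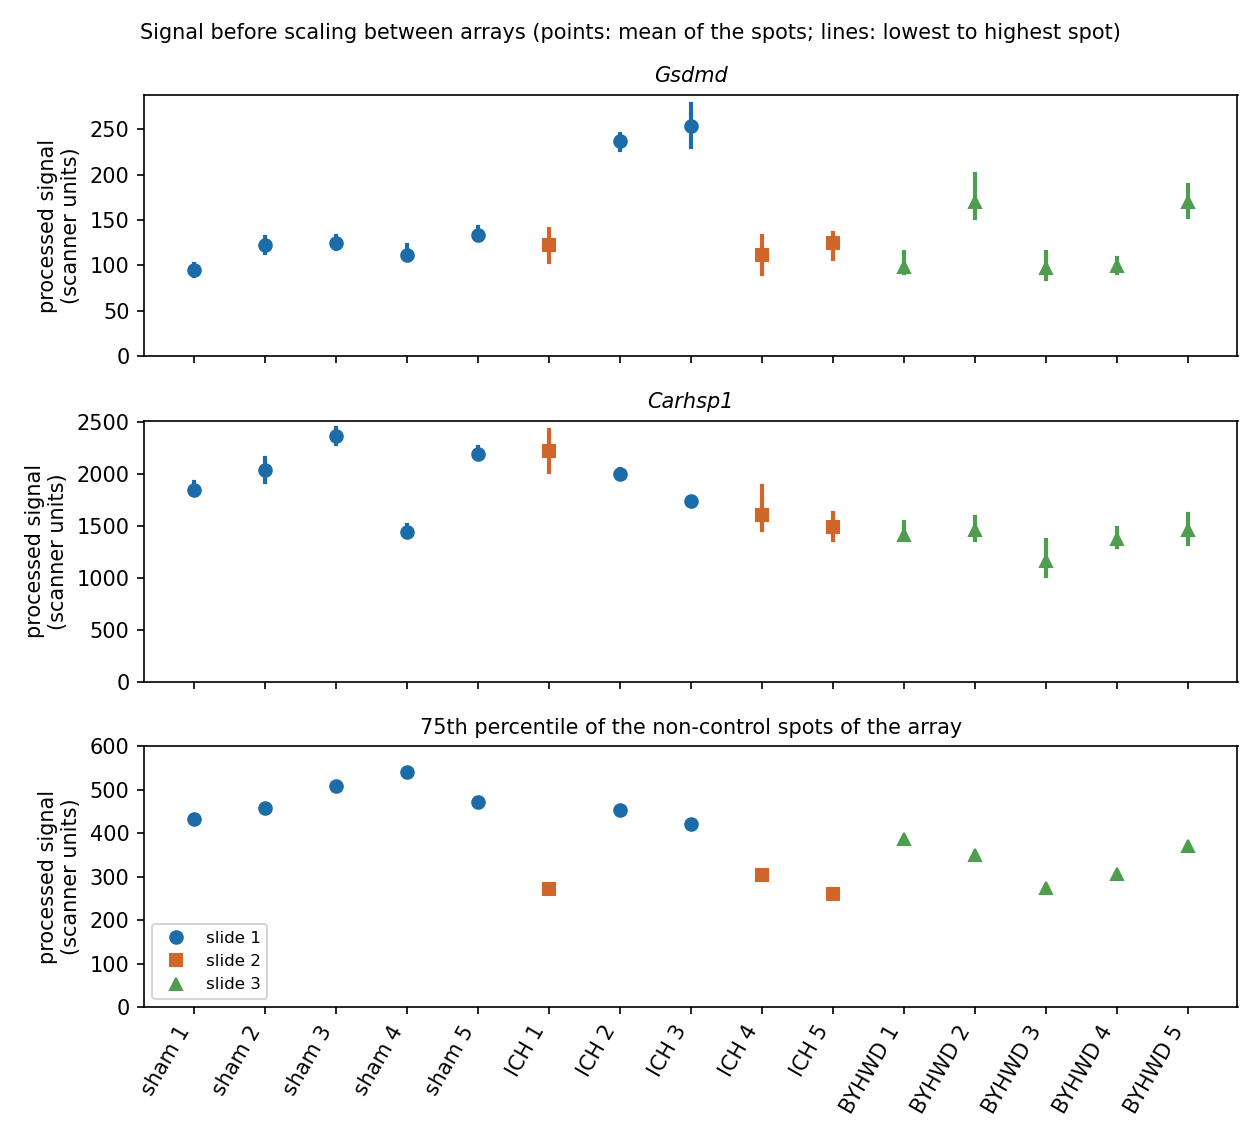
Processed signal in scanner units, before scaling between arrays, for Gsdmd (top) and Carhsp1 (middle), with points for the mean of the spots on an array and lines from the lowest to the highest spot, and the 75th percentile of each array (bottom). Gsdmd reached 236.5 and 254 units on ICH 2 and ICH 3 against 95.5 to 134 on sham, while the dimmer ICH arrays of slide 2 gave 111 to 125.

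Carhsp1 did not pass the test in any of the 3 comparisons. Its level was 2.09, 2.16, 2.21, 1.42 and 2.22 on sham arrays 1 to 5. On ICH arrays 1 to 5 it was 3.03, 2.14, 2.05, 2.41 and 2.51. On BYHWD arrays 1 to 5 it was 1.87, 2.06, 2.08, 2.17 and 1.98. Sham 4 was far below the other sham arrays and ICH 1 was the highest of all 15 arrays, while the BYHWD arrays lay close together. The sham mean was 2.02 ± 0.34, the ICH mean 2.43 ± 0.39 and the BYHWD mean 2.03 ± 0.11 (SD, n = 5 for each).

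Between ICH and sham the Carhsp1 difference was 0.41 ± 0.18 log2 units, with a 95% interval of 0.02 to 0.80, or 1.33-fold (1.01 to 1.74). The limma p was 0.0420 before and 0.159 after adjustment, and the exact permutation p was 0.111. ICH 1, ICH 4 and ICH 5 were above every sham array and ICH 2 and ICH 3 were not. Without sham 4 the difference was 0.26 (limma adjusted p = 0.335), and without ICH 1 it was also 0.26 (limma adjusted p = 0.376).

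The ICH arrays with high Carhsp1 were those of slide 2. On slide 1, ICH 2 and ICH 3 differed from sham by 0.07 ± 0.21 log2 units, with a 95% interval of -0.37 to 0.51 (limma adjusted p = 0.996). The ICH arrays of slide 2 exceeded sham by 0.63 ± 0.18, or 1.55-fold, with no overlap (limma adjusted p = 0.0134), where 21.4% of all probes were called higher. Without scaling that difference was -0.16 (limma adjusted p = 0.422). The difference between the ICH arrays of slide 2 and slide 1 was 0.56 ± 0.23. It did not pass the test (limma adjusted p = 0.0925, with 22% of all probes called), and it was 0.76 after quantile normalization (limma adjusted p = 0.0273). ICH and slide cannot be told apart in the values from slide 2.

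In scanner units Carhsp1 was not higher after hemorrhage. The sham arrays gave 1845, 2041, 2364, 1443 and 2194 units and the ICH arrays 2222, 1997, 1737, 1607 and 1488. The BYHWD arrays gave 1414, 1463, 1161, 1376 and 1461 units. Without scaling the ICH difference from sham was -0.12 log2 units, so its direction turned, while relative to the median of all probes it was 0.36. Sham 4 gave the lowest Carhsp1 signal of the sham arrays and had the highest 75th percentile of all arrays, 540 units.

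Between BYHWD and ICH the Carhsp1 difference was -0.39 ± 0.18 log2 units, with a 95% interval of -0.78 to -0.00386, or 0.761-fold. The limma p was 0.0480 before and 0.177 after adjustment, and the exact permutation p was 0.0556. BYHWD 1 and BYHWD 5 were below every ICH array and the others overlapped. Against the ICH arrays of slide 1 the difference was -0.06 ± 0.21 (limma adjusted p = 0.900). Against those of slide 2 it was -0.62 ± 0.18, or 0.652-fold, with no overlap (limma adjusted p = 0.0204), in a comparison in which 12.6% of all probes were called lower. Without scaling this difference was -0.35, or 0.785-fold, and did not pass (limma adjusted p = 0.173).

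Between BYHWD and sham the Carhsp1 difference was 0.01 ± 0.18 log2 units, or 1.01-fold (0.770 to 1.32), with a limma adjusted p of 0.969. Its 95% interval, -0.38 to 0.40, bounds the difference without showing that the groups are alike. Without sham 4 it was -0.14. The order of the levels was sham, BYHWD, ICH, with no pair of neighbours passing after adjustment over all probes. The order of sham and BYHWD turned under several settings.

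**Figure D3:**
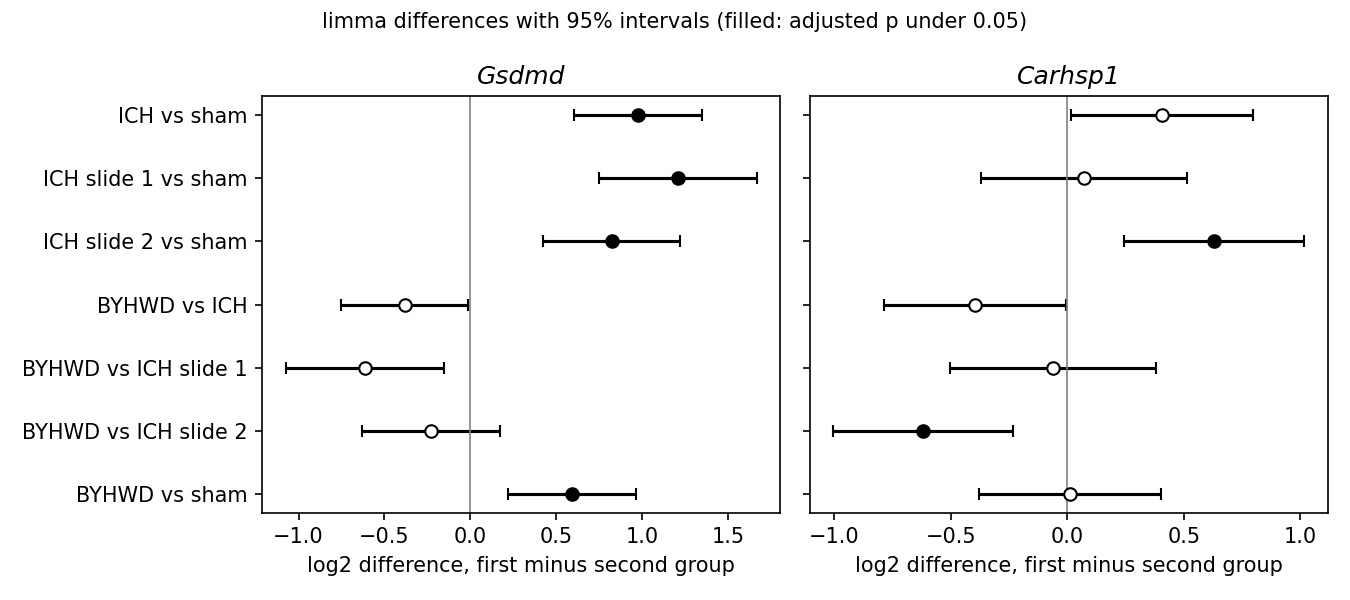
Log2 differences of Gsdmd (left) and Carhsp1 (right) between groups, first minus second, with 95% intervals from limma and filled points where the adjusted p was under 0.05. For Gsdmd the ICH excess over sham was 1.21 with the ICH arrays of slide 1 and 0.82 with those of slide 2, and for Carhsp1 it was 0.07 and 0.63.

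The relation between the genes from array to array was described with and without regard to the slides. Over the deviations of the 15 arrays from their group means, Gsdmd and Carhsp1 had a Pearson r of 0.04 (permutation p = 0.880) and a Spearman rho of 0.07 (permutation p = 0.813). Without BYHWD 1 and BYHWD 2, the arrays farthest from the median, r was -0.07. Taken within group and slide, r was 0.39, and over the 7 arrays of slide 1 it was 0.68. Sham 4, the lowest sham array for both genes (-2.28 for Gsdmd and 1.42 for Carhsp1), was among those 7, and no value was computed without it. The values within slides were not tested, so whether the relation depends on the slides was not settled. Slides 2 and 3 held too few arrays for a value of their own.

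Neither gene had a relation to RNA quality that passed adjustment. The Gapdh 3' minus 5' difference and Carhsp1 had r = 0.52 over the same deviations (permutation p = 0.0452, 0.136 adjusted over the 3 relations computed) and rho = 0.55 (permutation p = 0.0369, adjusted 0.111). Without ICH 2 and sham 3, r was 0.67. Within group and slide r was 0.25, and over the 7 arrays of slide 1 it was 0.11. For Gsdmd the same r was 0.09 (permutation p = 0.756), rho was -0.01 (permutation p = 0.966), and r was 0.24 without ICH 2 and sham 3. Within group and slide r was 0.49, and over slide 1 it was 0.42.

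The Gapdh difference was 0.61 to 0.79 on the ICH arrays of slide 2, where Carhsp1 was high, and 0.33 and 0.52 on those of slide 1. With it as a covariate, the limma estimate for Carhsp1 between ICH and sham was 0.02. The Gsdmd estimate was 0.91 ± 0.27 (limma adjusted p = 0.955), in a fit that called 0 of all probes and had 1586 at an unadjusted p under 0.05. The covariate itself differed between the groups, and its part in either result was not tested.

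Of the pathways of these genes few members were read by name, since symbols were sought only for probes whose names begin with A_51_P. Whether other probes of the array read the remaining members was not looked up. In a list of 28 pyroptosis and inflammasome genes, Gsdmd was the only one with a named and tested probe, and of 21 genes of tumor necrosis factor and its mRNA regulation Carhsp1 was the only one. Inflammatory caspases, inflammasome sensors, interleukin-1 beta and tumor necrosis factor itself were therefore not analysed here. Of 12 other cell death genes 0 were named. Of 20 cytokine and immune genes 2 were named, Il2, a T cell growth factor, and H2-Q7, a nonclassical MHC class I gene. Both were called higher in ICH than in sham, by 1.16 (limma adjusted p = 0.0431; its groups overlapped) and 1.82 log2 units (limma adjusted p = 0.00434). The Il2 difference was 0.17 with the ICH arrays of slide 1 (limma adjusted p = 0.989) and 1.82 with those of slide 2, where 36.5% of all probes were called. The Il2 call was lost in 13 of the 15 fits that left out 1 array. The H2-Q7 difference was 1.85 and 1.80 with the ICH arrays of slide 1 and slide 2. Neither was called between BYHWD and ICH, and 1 of them, H2-Q7, was higher in BYHWD than in sham, by 1.22 (limma adjusted p = 0.00783). Of all tested probes, 5.03% were called between ICH and sham, 6.13% between BYHWD and ICH and 17.3% between BYHWD and sham. Il2 was read close to background. Its processed signal was 11.8 to 33.8 scanner units, and on BYHWD 5 only 4 of its 10 spots stood well above background.

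Cell type markers were as sparse among the named probes, and with no marker of striatal neurons there the tissue label was not checked. Of 20 markers of microglia and macrophages 1 had a named probe, Apoe, a lipid carrier that astrocytes also express. It was higher in ICH than in sham by 0.94 log2 units (limma adjusted p = 0.00825) and in BYHWD than in sham by 0.93 (limma adjusted p = 0.00275), and its difference between BYHWD and ICH was -0.02 (limma adjusted p = 0.960). Without scaling its ICH difference from sham was 0.41 and did not pass (limma adjusted p = 0.138), while the median of all probes was at -0.48. With scaling, 5.03% of all probes were called between ICH and sham and 17.3% between BYHWD and sham. Of 6 B and plasma cell markers Mzb1, a chaperone of antibody-secreting cells, was higher in ICH by 0.69 (limma adjusted p = 0.0266) and in BYHWD by 0.64 (limma adjusted p = 0.0133), both against sham. The Mzb1 difference between ICH and sham was 0.29 with the ICH arrays of slide 1 (limma adjusted p = 0.844). With those of slide 2 it was 0.96, where 36.5% of all probes were called. Without scaling it was 0.17 (limma adjusted p = 0.419), against the median of -0.48 over all probes. The Mzb1 call was lost in 7 of the 15 fits that left out 1 array. Mbp, a myelin protein and the named gene among 7 oligodendrocyte markers, differed by 0.19 between ICH and sham (limma adjusted p = 0.272). Il2 was the named gene among 6 T cell markers. Lists for neutrophils (7 genes), astrocytes (6), neurons of the striatum (11), endothelium (4) and red cells (4) had 0 named probes. The part of cell numbers in the Gsdmd values was not tested.

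Among the 44 other named genes, those whose levels followed Gsdmd most closely over the 15 arrays were H2-Q7, Apoe and H2-M2, another nonclassical MHC class I gene. Pearson r was 0.95 for H2-Q7, 0.90 for Apoe and 0.84 for H2-M2, against a median of 0.07 and a range of -0.37 to 0.95 over the 44 genes. These are descriptions, since the genes were picked for their likeness and the arrays share groups, slides and scaling. With each group's mean taken off, r was 0.84 for each of the 3 genes, and after quantile normalization it was 0.90, 0.86 and 0.90. Of all tested probes, 36, with H2-Q7 itself included, followed Gsdmd at least as closely as H2-Q7 did, or 0.0697%. For Apoe it was 0.430% and for H2-M2 0.910%. H2-Q7 has close copies in the genome, and which of them the probe detects is uncertain.

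The likeness had its limits in the group contrasts. H2-M2 differed by 0.47 ± 0.20 log2 units between ICH and sham and did not pass the test (limma adjusted p = 0.138). The lowest BYHWD array for Gsdmd, BYHWD 1, was also the lowest BYHWD array for Apoe, at 7.78, and for H2-Q7, at 2.30, and H2-M2, at 2.22. This was not particular to these genes. BYHWD 1 was the lowest BYHWD array for Carhsp1, at 1.87, and for Mbp, Tm9sf1 and Gamt, but not for Il2, Mzb1 or Rab5a. Its 75th percentile, 386 units, was the highest of the group. Apoe had nearly the same mean in BYHWD as in ICH, 8.41 against 8.43, while H2-Q7, at 3.09 against 3.69, had a difference of -0.61 that did not pass the test (limma adjusted p = 0.158).

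Carhsp1 was followed most closely by Tm9sf1, an endosomal membrane protein, Rab5a, a GTPase of early endosomes, and Gamt, an enzyme of creatine synthesis. Pearson r was 0.79, 0.78 and 0.76 over the 15 arrays, against a median of 0.35 and a range of -0.83 to 0.79. With group means taken off it was 0.69, 0.70 and 0.69. After quantile normalization it was 0.85, 0.83 and 0.78, so the ranking depended on the scaling. Gpi1 (0.82), Mbp (0.80) and Prdx2 (0.80) then ranked above Gamt, against 0.70, 0.45 and 0.26 in the main scaling. The r largest in size were negative in the main scaling, at -0.83 for Duox1 and -0.82 for both Olfr166 and Lhx1. As close to Carhsp1 as Tm9sf1, Rab5a and Gamt in the main scaling were 491, 527 and 831 of all tested probes, or 0.950%, 1.02% and 1.61%. These shares are counted at each gene's own r and include that gene itself. ICH 1 was the highest array for Carhsp1, Tm9sf1 and Rab5a. Between ICH and sham none of the 3 genes passed the test: limma differences were 0.20 for Tm9sf1, 0.21 for Rab5a and 0.15 for Gamt, with adjusted p-values of 0.193, 0.294 and 0.284.

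**Figure D4:**
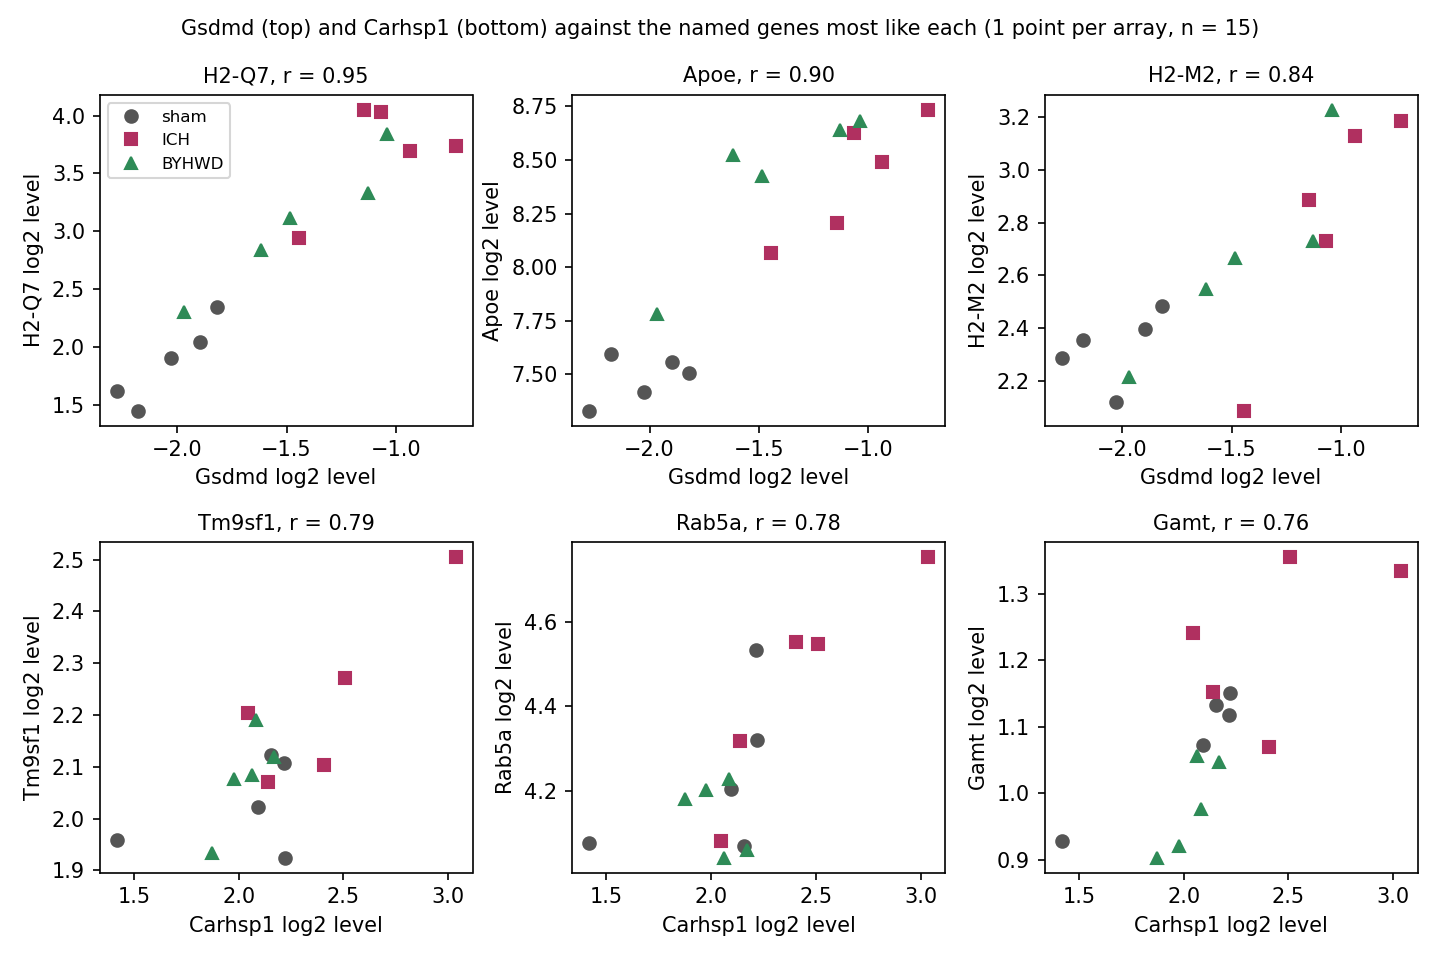
Log2 levels of the 3 named genes most like Gsdmd (top) and Carhsp1 (bottom) against the level of each, with 1 point per array (n = 15) and the group as colour and shape. H2-Q7 ran with Gsdmd at r = 0.95 with sham arrays at the lower left, and in the lower panels the sham and BYHWD arrays overlap.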

How the data were processed

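Per the file headers, Agilent Feature Extraction 11.0.1.1 made the deposited scanner output, an intensity per spot on 15 one-colour (Cy3) arrays. The processed signal, corrected for background within an array by that software and not scaled between arrays, was used. Each array had 62976 spots, of which 1439 were controls. Spots that the software marked as outliers were left out (25 to 93 per array), the log2 values of a probe's spots were averaged, and the array's 75th percentile over the other spots was subtracted. Well above background were 81.4% to 86.2% of spots. A probe was tested when it was so on at least 5 arrays. Spike-in and similar names (132 probes) and probes without a value on every array (171) were not tested. The 3 groups were fitted together in limma 3.58.1 (R 4.3.3), with Benjamini-Hochberg adjustment over all 51669 probes, 2-sided, after the code was tested on simulated data. Exact permutation tests used the single gene's values. Correlations across arrays used 1e+05 permutations.

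Symbols came from RefSeq accessions in the files: of 50 accessions 46 matched a symbol. They were sought only for probes whose names begin with A_51_P, and the other tested probes were not looked up. Slides were read from the scan identifiers in the file headers. Gsdmd and Carhsp1, the members of each list with a named probe, and for each of both genes the 3 named genes of highest Pearson r were named. Genes and lists were chosen with earlier results of these data known. The deposited log2 table had no row for either probe and was not used. Arrays are few, which limits the precision. Alternatives covered scaling, background correction, filters, variance models, slide, replicate number and each array left out.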

Additional observations from a re-analysis of the deposited data

Results flagged for a closer look

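Of 33 gene and group sets checked with Dixon's ratio, 3 had an array that stood apart, with the gap to the nearest array divided by the whole range above the 95% critical value for 5 arrays. Chance gives about 1 in 20. Carhsp1 on sham 4 had a ratio of 0.842, at 1.42 log2 units against 2.09 to 2.22 on the other sham arrays. Mbp on the same array had a ratio of 0.791, at 7.79 against 8.11 to 8.20. Apoe on BYHWD 1 had a ratio of 0.717, at 7.78 against 8.43 to 8.68. This array was also the lowest of its group for Gsdmd, at -1.97, and for Carhsp1, at 1.87. No array stood apart for Gsdmd by this ratio.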

How the results depend on the processing

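Between ICH and sham, Gsdmd stayed higher in 35 of 35 alternatives (0.45 to 1.21) and passed the limma test in 32. It did not pass without the ICH arrays of slide 2 (1.21, adjusted p = 0.0599), with the Gapdh covariate (0.91) or with no scaling between arrays (0.45). Leaving out 1 array gave 0.89 to 1.07, passing each time. Between BYHWD and ICH it did not pass in any of the 35 alternatives that changed 1 choice at a time, at -0.61 to -0.23. With both the ICH arrays of slide 1 alone and no scaling it passed (-0.998, adjusted p = 0.0154), in a comparison whose share of all probes called is not given here. Between BYHWD and sham it passed in 20 of 33, and not with quantile normalization (0.53), array medians (0.51), normexp then quantile (0.37), slide as a random block (0.70, adjusted p = 0.576), the Gapdh covariate (0.55), no scaling (0.069) or the mean of the other named probes subtracted (0.49). Leaving out 1 array gave 0.49 to 0.72.

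Carhsp1 passed only with the ICH arrays of slide 2 alone (0.63 against sham, -0.62 for BYHWD against them) and, between BYHWD and sham, with no scaling (-0.51, adjusted p = 0.0263). In that unscaled comparison 42.1% of all probes were called, and the median of all probes was at -0.499. The Carhsp1 difference of -0.51 lay close to that median, so the call was not particular to Carhsp1. No scaling turned the Carhsp1 difference between ICH and sham to -0.12 and that of Mbp to -0.34. Its BYHWD difference from sham turned with array medians (-0.065), normexp and the 75th percentile (-0.048), slide as a random block (-0.15), the Gapdh covariate (-0.25) and the other named probes (-0.092), and ran from -0.14 to 0.063 with 1 array left out. Between ICH and sham, Il2 passed in 11 of 34 alternatives, Mzb1 in 20 of 35, Apoe in 32 and H2-Q7 in 33. The causes were not tested.

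The replicate numbers did not pair the arrays: same-numbered arrays had r of -0.34 to 0.09, with 0 of 15 pairs above 0.1. With the replicate block, Gsdmd gave 0.97 (adjusted p = 0.00518), -0.38 and 0.59 and Carhsp1 0.41, -0.39 and 0.01, with the same calls, while the share of probes called was 2.24%, 1.15% and 11.8%. Leaving out 1 array gave shares of 0.852% to 20.2%, 1.74% to 12.2% and 10.6% to 18.4%. Across alternatives that share ran from 0% to 42.6% for ICH and sham, from 0.00194% to 27.7% for BYHWD and ICH, and from 0.00581% to 42.1% for BYHWD and sham. Of the calls for ICH and sham 81.0% were higher, against 2.31% with no scaling and 27.7% with the other named probes; for BYHWD and sham 73.3%, against 58.9% with quantile normalization, 55.0% with array medians, 48.6% with the other named probes and 4.20% with no scaling. For BYHWD and ICH 59.0% were higher, against 80.8% with the other named probes. The median of all probes between ICH and sham was 0.05, 0.18 with normexp and the 75th percentile, and -0.14 with the other named probes. No scaling, the other named probes and the treatment of spots were chosen after seeing the data. Normexp used the median spot signal. The deposited table was not run, having no row for these probes.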
